A study of Mus musculus with 24 samples.

Results

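The genes described here are 6 genes that mark mast cells, Cpa3, Cma1, Mcpt4, Tpsb2, Kit and Hdc, together with Prtn3, the gene of a serine protease of myeloid granules. They were taken by gene symbol from the tables deposited for inguinal white adipose tissue (IWAT), the fat pad under the skin of the groin. All 7 were among the 16821 genes with counts, and all 7 passed the filter on low counts that left 15176 genes for testing. They were chosen by measured levels of these same libraries, seen in earlier results, and Prtn3 had been named for its lower level under methionine restriction on casein. Which comparison chose the other 6 is not recorded. Values of the 7 genes in comparisons that use the casein libraries are therefore given as descriptions. Counts of calls among those values are no test. Adjusted p-values of the 7 genes in elemental MR may not be independent of the choice.

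The data came from 24 male C57BL6/J mice, 6 per diet, and each library carries its own mouse number. Elemental control mice ate free amino acids with 0.86% methionine. Elemental MR mice (MR, methionine restriction) ate free amino acids with 0.17% methionine. Casein control mice ate casein with 0.86% methionine. Oxidized casein MR mice ate oxidized casein in a diet with 0.17% methionine. All mice began their diet at 5 weeks of age, ate it for 12 weeks, and were 4 months old when sampled, having fasted for 4 h. The labels speak of 8 mice per diet, and 6 libraries per diet were analysed here. The series' design text speaks of the liver, while its title and the sample source name IWAT. The series asks how MR given through oxidized casein compares with MR given through free amino acids.

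Mast cells are tissue-resident immune cells that store histamine and proteases in granules. Connective tissue mast cells of the mouse hold carboxypeptidase A3, chymases and tryptases bound to heparin, and they depend on stem cell factor acting through the receptor Kit. In white fat they lie along vessels and between adipocytes. Proteinase 3, the product of Prtn3, is best known from neutrophil granules, where it sits beside neutrophil elastase and cathepsin G.

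The 3′ sequencing used here reads 1 end of each transcript, so a level does not grow with transcript length. Levels are CPM, counts scaled to the TMM-adjusted total of each library, given as mean ± SD with n = 6 per diet unless stated. Library totals ran from 7468336 to 19868913 reads. A list of 12 B cell and lymph node genes split the libraries by the widest gap in its mean log2 CPM. It stood between 5.08 and 6.88 in 15 libraries, called here libraries with lymph node transcripts, and between -0.152 and 3.04 in the other 9. Libraries with lymph node transcripts numbered 4 in elemental control, 5 in elemental MR, 4 in casein control and 2 in oxidized casein MR. The summed level of 9 skeletal muscle genes reached 12120 CPM in the elemental controls. Its highest value was 5458 CPM in elemental MR, 373.6 CPM in casein control and 798.8 CPM in oxidized casein MR. The elemental libraries with these values were elemental control replicate 2 and elemental MR replicate 2, and elemental values are also given without them where they are lowest or highest. The libraries without lymph node transcripts hold 1 elemental MR library, this same replicate 2, so each elemental MR value among them rests on 1 library and is no test. In bulk tissue, fewer cells of a type and less RNA per cell cannot be told apart.

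RefSeq promoter sequences (GRCm38.p6) were found for 6 of the 7 genes. Those of the proteases Cpa3, Cma1 and Mcpt4 and of Prtn3 are shown, as the 250 bases before the annotated start, 5′ to 3′ on the gene's strand, to place the genes beside each other. Capitals mark matches on either strand to 4 motifs bound by factors of blood cells. AGATAA is a motif of GATA factors. The E-box motif searched was CACATG. For CEBP factors it was TTGCNNAA, and for PU.1 it was GAGGAA. The windows are chr3:20242182-20242431 (minus strand) for Cpa3, chr14:55944676-55944925 (minus) for Cma1, chr14:56062311-56062560 (minus) for Mcpt4 and chr10:79879417-79879666 (plus) for Prtn3.
Cpa3: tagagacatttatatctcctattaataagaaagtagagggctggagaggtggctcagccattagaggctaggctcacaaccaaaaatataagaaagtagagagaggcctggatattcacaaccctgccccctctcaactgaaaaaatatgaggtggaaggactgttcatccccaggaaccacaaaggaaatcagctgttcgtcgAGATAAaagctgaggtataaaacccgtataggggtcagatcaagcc
Cma1: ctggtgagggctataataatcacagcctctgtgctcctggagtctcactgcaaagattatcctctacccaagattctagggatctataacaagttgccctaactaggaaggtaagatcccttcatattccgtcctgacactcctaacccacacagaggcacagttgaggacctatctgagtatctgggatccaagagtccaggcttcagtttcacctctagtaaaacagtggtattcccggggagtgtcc
Mcpt4: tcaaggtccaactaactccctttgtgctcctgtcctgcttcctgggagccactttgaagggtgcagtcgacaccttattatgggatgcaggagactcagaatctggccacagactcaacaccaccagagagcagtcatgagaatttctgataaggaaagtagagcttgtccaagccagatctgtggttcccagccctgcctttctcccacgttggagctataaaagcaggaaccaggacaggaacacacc
Prtn3: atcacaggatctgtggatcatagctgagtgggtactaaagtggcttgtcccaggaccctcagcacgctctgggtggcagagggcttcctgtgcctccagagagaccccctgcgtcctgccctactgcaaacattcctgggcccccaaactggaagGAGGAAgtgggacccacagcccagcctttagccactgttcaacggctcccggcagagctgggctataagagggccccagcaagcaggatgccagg

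Cpa3 held 1 AGATAA, whose first base lies at -46 from the start. This motif occurs in 9.97% of 32536 promoter windows of the same length. Prtn3 held 1 GAGGAA at -95, a motif found in 23.36% of the windows. The windows of both annotated Kit starts overlap and held 1 and the same GAGGAA. The windows of Cma1, Mcpt4 and Hdc held none of the 4 motifs. CACATG was found in 12.26% and TTGCNNAA in 9.571% of all windows. The matches describe the letters of the windows only.

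The 4 proteases were present in every library, with at least 22 reads each. Their summed level was 59.2 ± 16.6 CPM in elemental control, 40.2 ± 13.5 in elemental MR, 69.1 ± 15.0 in casein control and 61.2 ± 12.9 in oxidized casein MR (n = 6 each). The elemental MR libraries ran from 28.3 to 64.9 CPM and overlapped the elemental controls, which ran from 36.2 to 85.6. Without replicate 2 of each, the means were 42.5 ± 13.6 and 63.8 ± 13.6 CPM (n = 5). Tpsb2 supplied 52.8 ± 6.90% of the sum over all 24 libraries, Cpa3 20.9 ± 4.61%, Cma1 16.8 ± 3.08% and Mcpt4 9.48 ± 2.29%. The order of these 4 shares was the same in the mean of each diet. In oxidized casein MR, however, Cpa3 and Cma1 were nearly equal, at 17.4 ± 2.91% and 17.2 ± 3.52%.

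**Figure D1:**
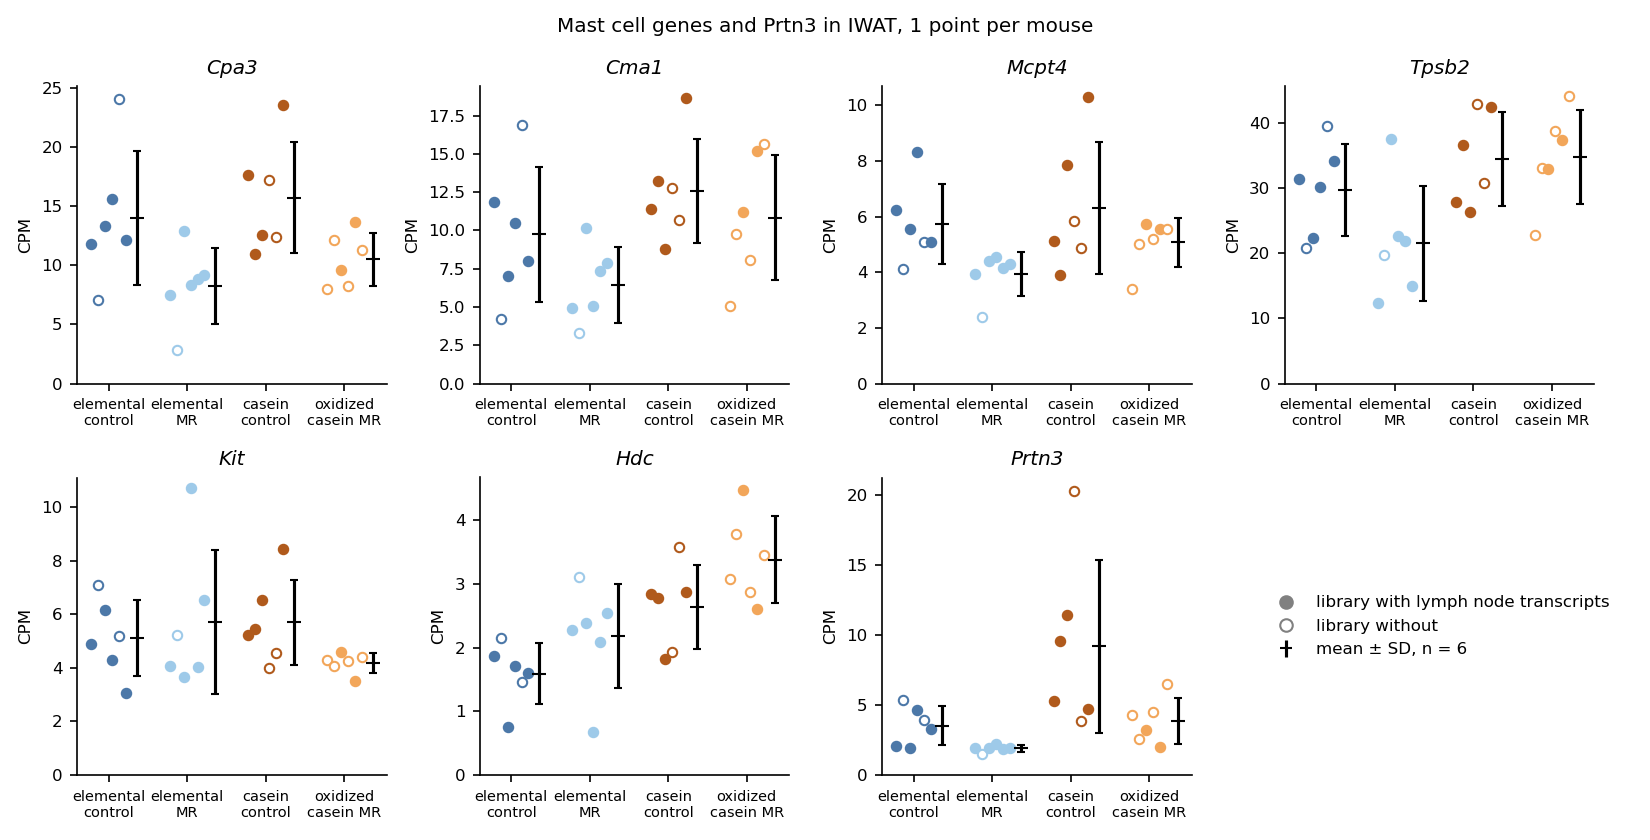
Level of each gene in CPM (y axis, linear from 0) in the 4 diets (x axis). Each point is 1 mouse, filled for libraries with lymph node transcripts and open for those without, and bars show mean ± SD of 6 mice. Elemental MR holds the lowest mean for the 4 proteases and Prtn3, Hdc is highest in oxidized casein MR, and 1 casein control library stands at 20.3 CPM for Prtn3.

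Cpa3 encodes carboxypeptidase A3, a mast cell exopeptidase (ENSMUSG00000001865, chr3:20215620-20242181, minus strand, 11 exons, GRCm38). Its level ran from 7.04 through a median of 12.8 to 24.1 CPM in elemental control and from 2.84 through 8.58 to 12.9 in elemental MR. In casein control it ran from 11.0 through 14.9 to 23.6 CPM and in oxidized casein MR from 8.00 through 10.5 to 13.6. On both protein sources the MR libraries sat toward the low end of their controls. In elemental MR, 5 of 6 libraries lay below the control median, and in oxidized casein MR all 6 lay below the casein control median, with overlap in both. The fitted log2 fold change was -0.74 (SE 0.28) in elemental MR, which did not pass (edgeR adjusted p = 0.321). On casein it was -0.57 (SE 0.28). Elemental MR replicate 2 was the lowest library, and without it the elemental value was -0.56 (edgeR adjusted p = 0.333). Without elemental control replicate 2, the lowest control of its group, it was -0.90 (edgeR adjusted p = 0.295). Among libraries with lymph node transcripts the elemental value was -0.48, and among those without -2.42.

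Cma1 encodes a chymase of connective tissue mast cells (ENSMUSG00000022225, chr14:55941451-55944675, minus strand, 5 exons). Elemental control libraries ran from 4.21 through 9.25 to 16.9 CPM, and elemental MR libraries from 3.29 through 6.22 to 10.2. Casein controls ran from 8.76 through 12.1 to 18.7 CPM and oxidized casein MR libraries from 5.08 through 10.5 to 15.6. Thus 5 of 6 elemental MR libraries lay below the control median, and 4 of 6 on casein. The log2 fold change was -0.58 (SE 0.31, edgeR adjusted p = 0.55) in elemental MR and -0.20 (SE 0.30) on casein. The elemental value was -0.44 without elemental MR replicate 2 and -0.75 without elemental control replicate 2, the 2 libraries with most muscle transcripts. It was -0.38 among libraries with lymph node transcripts and -1.65 among those without.

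Mcpt4 encodes another chymase of these cells, mouse mast cell protease-4, and lies 114953 bp from Cma1 (ENSMUSG00000061068, chr14:56059629-56062313, minus strand, 5 exons). Its levels were lower, from 4.11 through 5.32 to 8.31 CPM in elemental control and from 2.40 through 4.23 to 4.54 in elemental MR. All 6 elemental MR libraries lay below the control median, and 2 lay below every control. Casein controls ran from 3.89 through 5.49 to 10.3 CPM and oxidized casein MR libraries from 3.39 through 5.38 to 5.75, with 3 of 6 below the control median. The log2 fold change was -0.51 (SE 0.22, edgeR adjusted p = 0.409) in elemental MR and -0.30 (SE 0.22) on casein. Without casein control replicate 6, the highest library, the casein value was -0.13. The elemental value was -0.40 without elemental MR replicate 2 and -0.61 without elemental control replicate 2, each the lowest of its group. It was -0.53 and -0.91 among libraries with and without lymph node transcripts. In the last 500 transcript bases, 12.86% of the 50-base stretches of Mcpt4 also occur in Cma2 or Mcpt9, and 12.36% of those of Cma1 occur in Gm48934, so counts of these 2 genes are partly uncertain. The other 5 genes shared no such stretch.

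Tpsb2 encodes a tryptase, which cuts after lysine and arginine (ENSMUSG00000033825, chr17:25366305-25369098, plus strand, 6 exons). It was the highest of the 7 genes, from 20.8 through 30.8 to 39.4 CPM in elemental control and from 12.3 through 20.8 to 37.5 in elemental MR. Casein controls ran from 26.4 through 33.6 to 42.9 CPM and oxidized casein MR libraries from 22.8 through 35.1 to 44.0. In elemental MR 3 libraries lay below every elemental control, while replicate 3 lay among the higher controls. The log2 fold change was -0.45 (SE 0.22, edgeR adjusted p = 0.499) in elemental MR and 0.02 (SE 0.22) on casein. Without elemental MR replicate 3 the elemental value was -0.69 (edgeR adjusted p = 0.151). Without elemental control replicate 2, the lowest control of its group, it was -0.55 (edgeR adjusted p = 0.505). The casein value changed sign in 6 of 31 alternatives. The neighbouring tryptase gene Tpsab1, 20742 bp away, had at most 15 reads in any library.

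Kit encodes the receptor for stem cell factor, which mast cells, melanocytes and some progenitors carry (ENSMUSG00000005672, chr5:75574916-75656722, plus strand, 21 exons). Elemental controls ran from 3.06 through 5.04 to 7.09 CPM and elemental MR libraries from 3.66 through 4.65 to 10.7. Casein controls ran from 3.98 through 5.33 to 8.45 CPM, and oxidized casein MR libraries kept to a narrow range, from 3.50 through 4.28 to 4.58. Unlike the 4 proteases, Kit did not have its lowest mean in elemental MR, and its highest library was elemental MR replicate 4. The log2 fold change in elemental MR was 0.19 (SE 0.24, edgeR adjusted p = 0.923) and turned to -0.11 without that library. It was 0.28 without elemental control replicate 2, the highest control of its group. On casein it was -0.44 (SE 0.25), and all 6 oxidized casein MR libraries lay below the casein control median. Among libraries without lymph node transcripts the casein value was 0.00 to 2 decimals. The summed level of 5 melanocyte genes ran from 2.99 to 15.3 CPM over the 4 diets, and its part in the Kit values was not tested.

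Hdc encodes histidine decarboxylase, the enzyme that makes histamine (ENSMUSG00000027360, chr2:126593667-126619299, minus strand, 12 exons). It had the fewest reads of the 7, from 10 to 58 per library and 701 in all. Its level ran from 0.753 through 1.66 to 2.16 CPM in elemental control, from 0.678 through 2.34 to 3.11 in elemental MR, from 1.82 through 2.81 to 3.58 in casein control and from 2.60 through 3.27 to 4.48 in oxidized casein MR. The order of the means differed from that of Cpa3, with elemental control lowest and oxidized casein MR highest. In elemental MR, 4 of 6 libraries lay above every control, and replicate 4 lay below all of them. The log2 fold change was 0.45 (SE 0.29, edgeR adjusted p = 0.647) in elemental MR and 0.36 (SE 0.28) on casein. The elemental value was 0.34 without elemental MR replicate 2, the highest of its group, and 0.56 without elemental control replicate 2. Set against the proteases, Hdc gave 2.94 ± 1.60 reads per 100 protease reads in elemental control and 6.05 ± 3.33 in elemental MR, or 2.34 ± 0.663 and 5.06 ± 2.54 without replicate 2 of each (n = 5). The same ratio was 3.96 ± 1.32 in casein control and 5.77 ± 1.72 in oxidized casein MR, and groups overlapped on both protein sources. The share of reads, not the amount of histamine, was measured.

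Prtn3 encodes proteinase 3 (ENSMUSG00000057729, chr10:79874476-79883174, plus strand, 5 exons). It varied more between libraries than any of the other 6 genes, 13.4-fold from the lowest to the highest. Elemental controls ran from 1.92 through 3.603 to 5.39 CPM, and elemental MR libraries kept between 1.51 and 2.24 with a median of 1.93. Casein controls spread from 3.82 through 7.43 to 20.3 CPM, and oxidized casein MR libraries ran from 1.97 through 3.76 to 6.498. On each protein source all 6 MR libraries lay below the control median, and the lowest controls overlapped the MR range. In elemental MR the log2 fold change was -0.87 (SE 0.37) and did not pass (edgeR adjusted p = 0.385). It was -0.73 without elemental control replicate 2, the highest of its group, and -0.81 without elemental MR replicate 2. It was -0.56 among libraries with lymph node transcripts and -1.60 among those without. On casein it was -1.27 (SE 0.36), the comparison for which Prtn3 was already known. Casein control replicate 4, at 20.3 CPM and 306 reads, was the highest library, and without it the value was -0.86. It was -1.56 among libraries with lymph node transcripts and -1.42 among those without. Reads per library ran from 15 to 306, and in elemental MR from 15 to 33.

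**Figure D2:**
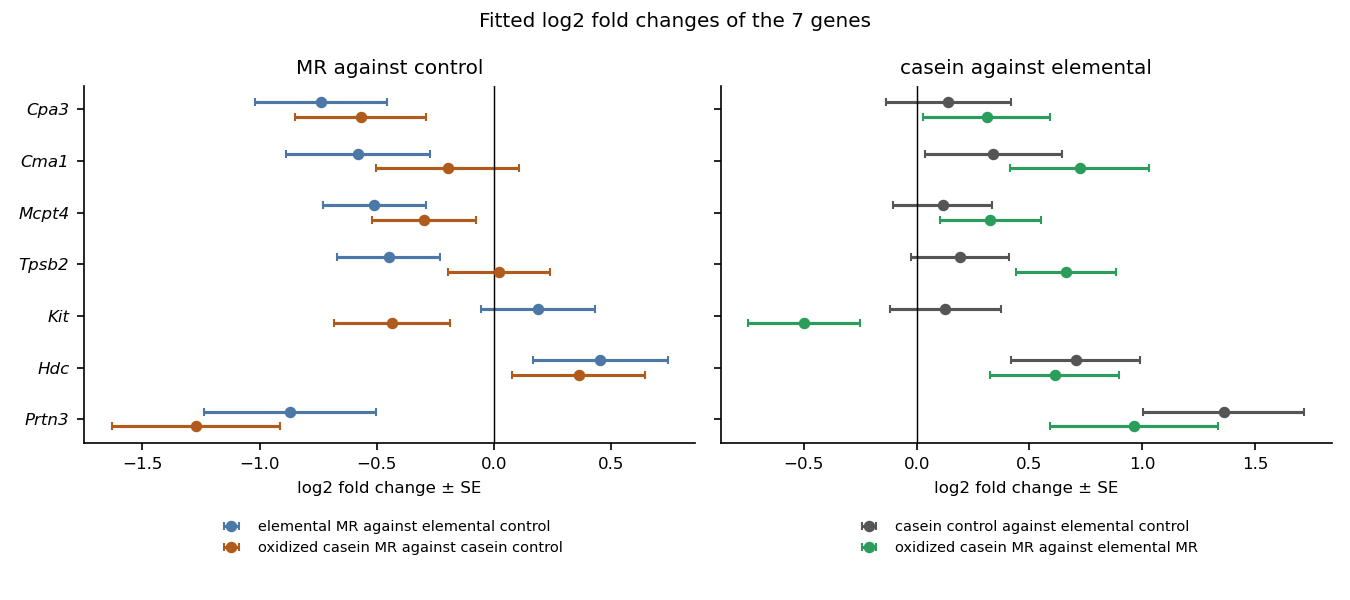
Fitted log2 fold change ± SE (x axis) of each of the 7 genes (y axis), for MR against control on each protein source (left) and for casein against elemental diets at each methionine level (right). Cpa3, Cma1, Mcpt4 and Prtn3 lie below 0 in both MR comparisons, Hdc lies above 0 in both, and Kit changes side.

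Across the comparison of elemental MR with elemental control, 0 of the 7 genes passed an edgeR adjusted p of 0.05, where 0.244% of all tested genes did (0.217% higher and 0.0264% lower). Of the 7 log2 fold changes, 5 were below 0 with a median of -0.51. Over all 15176 genes 53.9% were below 0, with a median of -0.02. In oxidized casein MR against casein control 1 of the 7 was past the threshold, namely Prtn3, which was lower, where 0.461% of all genes were called lower, 3.35% higher and 3.82% in either direction. That count follows from the choice of Prtn3 and is given as a description. There, 5 of 7 values were below 0 with a median of -0.30. Over all genes 58.1% were below 0, with a median of -0.06. The difference between the MR effects, casein minus elemental, called 0 of 7 genes and 0% of all genes with edgeR. At an unadjusted p under 0.05 it gave 506 genes, and DESeq2 called 2. For single genes that difference was largest for Kit at -0.63, followed by Tpsb2 at 0.47, Prtn3 at -0.40 and Cma1 at 0.38. The Prtn3 value was 0.01 without casein control replicate 4, and the Kit value was -0.32 without elemental MR replicate 4. Among libraries with lymph node transcripts the Kit difference was -1.02 and among those without it was 0.20, and for Prtn3 these were -0.99 and 0.18. 

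Between the protein sources at 0.86% methionine, the values of Prtn3 and Hdc were the largest of the 7. Casein control stood above elemental control by a log2 fold change of 1.36 (SE 0.36) for Prtn3, with 3 of 6 casein controls above every elemental control. For Hdc it was 0.70 (SE 0.29), with 4 of 6 casein controls above every elemental control. The other 5 genes lay between 0.12 and 0.34. None of the 7 was past the threshold in this comparison with edgeR, where 0.659% of all genes were, 0.0132% higher and 0.646% lower. Prtn3 was past it in 2 of 24 fits with 1 library left out, those without elemental control replicate 2 or casein control replicate 5. The same held in 3 of 7 other alternatives. These counts are descriptions and no test, since the casein control libraries took part in the choice of Prtn3. Without casein control replicate 4 the Prtn3 value was 0.95. At 0.17% methionine, oxidized casein MR stood above elemental MR by 0.96 (SE 0.37) for Prtn3, 0.72 (SE 0.31) for Cma1, 0.66 (SE 0.22) for Tpsb2 and 0.61 (SE 0.29) for Hdc. Kit went the other way at -0.50 (SE 0.25). Here edgeR called 0% of all genes, 1060 had an unadjusted p under 0.05, and DESeq2 called 12. These comparisons share libraries with the MR comparisons and add no independent support to them.

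In the order of the diet means, few neighbours differed by more than the larger of their SDs. For Mcpt4 the step from elemental MR to oxidized casein MR did, at 3.95 ± 0.790 and 5.08 ± 0.872 CPM. So did the step from casein control to oxidized casein MR for Hdc, at 2.64 ± 0.660 and 3.38 ± 0.683, and from elemental MR to elemental control for Prtn3, at 1.90 ± 0.234 and 3.54 ± 1.39. No neighbouring pair of diets did so for Cpa3, Cma1, Tpsb2 or Kit.

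The protease levels correlated across libraries. Over the 9 libraries without lymph node transcripts, Pearson's r of log2 CPM for the 6 protease pairs ran from 0.764 to 0.929, and over the 15 with them from 0.463 to 0.805. Cma1 and Tpsb2 gave r = 0.805 and rho = 0.804 in the 15 libraries (permutation p = 0.00037 and 0.00053, adjusted over the 12 relations 0.00148 and 0.00318). In the 9 libraries they gave r = 0.929 and rho = 0.883 (exact permutation p = 0.00104 and 0.00308, adjusted 0.00283 and 0.00923). Without the 2 libraries farthest from the median of Cma1, r was 0.745 and 0.824. The weakest pair was Mcpt4 and Tpsb2 in the 15 libraries, with r = 0.463 and rho = 0.368 (adjusted permutation p = 0.0787 and 0.175). In the 9 others that same pair gave r = 0.883 and rho = 0.95 (adjusted exact permutation p = 0.00148 and 0.00318). Without the 2 farthest libraries, r ran from 0.334 to 0.745 in the larger set and from 0.686 to 0.961 in the smaller. These p-values come from shuffling libraries across diets, so diet differences can enter the relations. With diet means removed and libraries shuffled only within a diet, r was above 0 for every pair, from 0.156 to 0.669 in the 15 libraries and from 0.586 to 0.924 in the 9. None of the 12 then passed (adjusted permutation p from 0.1 to 0.512). For Cma1 and Tpsb2, r was then 0.669 (permutation p = 0.0209, adjusted 0.1) and 0.912 (exact permutation p = 0.0417, adjusted 0.1). The 9 libraries allow 96 such orders, and the smallest p they can give is 0.0104. The relations were chosen with these libraries known and are no independent support for one another.

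Kit gave lower values with the 4 proteases than they gave with each other, in both sets of libraries. Hdc did so in the 9 libraries. In the 15, its rho with Cma1 and with Tpsb2 lay within the range of the protease pairs, 0.368 to 0.804. Spearman's rho of Kit with Cpa3 was -0.02 in the 15 libraries and -0.42 in the 9, and with Tpsb2 it was -0.23 and -0.55. For Hdc, rho with Cpa3 was 0.20 and -0.20, with Cma1 0.64 and -0.17, and with Tpsb2 0.41 and -0.18. Kit and Hdc gave -0.01 and -0.13 with each other. These values are descriptions over libraries that share diets, with no test.

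**Figure D3:**
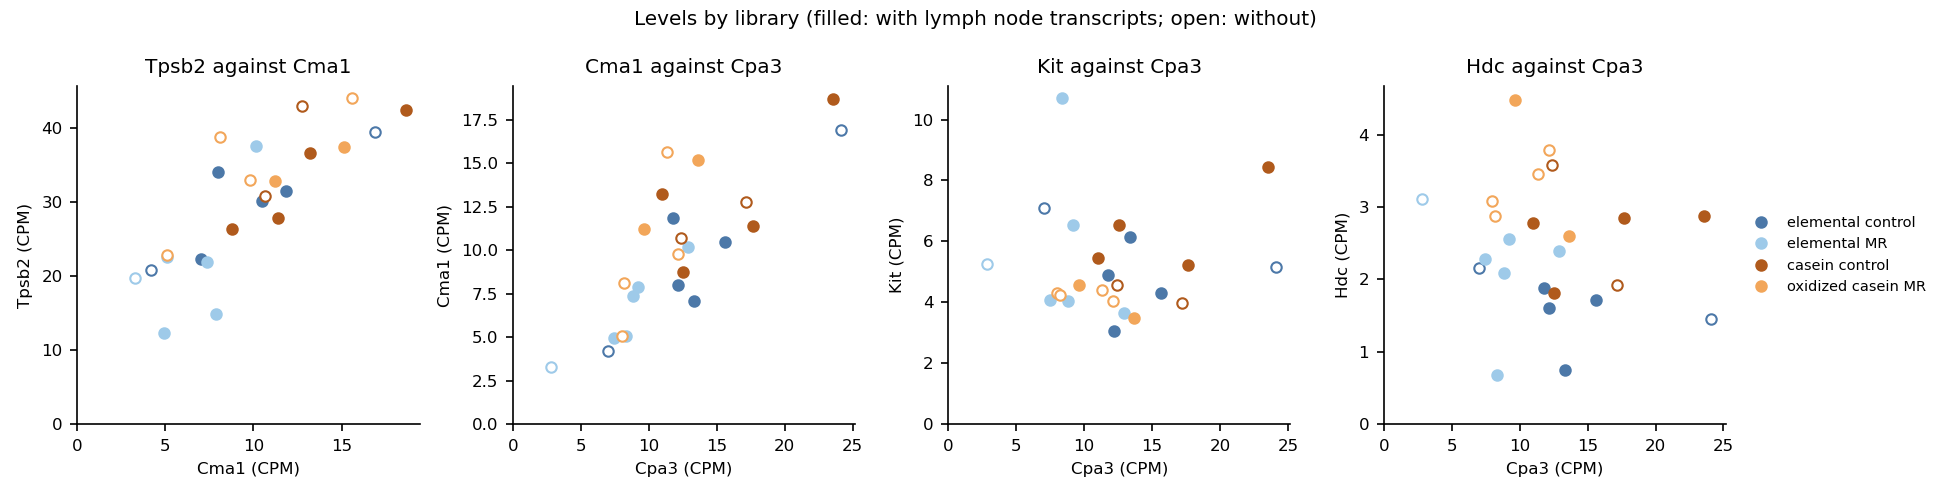
Level in CPM of 1 gene (y axis) against another (x axis), 1 point per mouse, coloured by diet, filled for libraries with lymph node transcripts and open for those without. Tpsb2 climbs with Cma1 and Cma1 with Cpa3, whereas Kit and Hdc show no common slope with Cpa3.

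The proteases can also be set against each other within a library. Cma1 reads per Cpa3 read were 0.694 ± 0.166 in elemental control, 0.816 ± 0.193 in elemental MR, 0.823 ± 0.200 in casein control and 1.01 ± 0.266 in oxidized casein MR. Tpsb2 reads per Cpa3 read were 2.27 ± 0.599 and 3.05 ± 1.98 on elemental diets and 2.30 ± 0.622 and 3.38 ± 0.799 on casein diets, control before MR. Elemental MR replicate 2, the library rich in muscle transcripts, had the highest Tpsb2 to Cpa3 ratio at 6.94. Without replicate 2 of each elemental group, that ratio was 2.14 ± 0.555 in control and 2.27 ± 0.601 in MR (n = 5), and Cma1 per Cpa3 was 0.713 ± 0.178 and 0.748 ± 0.109. All these groups overlapped, and no test was run on them.

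Genes with the most similar pattern were ranked by the lower of the 2 Spearman values, within the 15 and within the 9 libraries, over 15175 other genes. For Cpa3 the closest was Fcer1g, the gamma chain of Fc receptors that mast cells and macrophages both use, at 0.893. Man2b1, Slamf9, Ctsc, which encodes cathepsin C, and Sri followed, at 0.850, 0.843, 0.818 and 0.817. For Cma1 they were Csf1r, the receptor for macrophage colony-stimulating factor, and Clec4a3, both at 0.811, then Tpsb2 at 0.804, Washc1 and Il17ra. Tpsb2 had Cma1 as its closest gene, ahead of ENSMUSG00000104891, Inmt, Dexi and Vsir. For Mcpt4 the list was Scg3 at 0.767, Patz1, Stard8, Serpini1 and Ctso. For Cpa3, the other proteases ranked at 108 (Mcpt4), 157 (Cma1) and 316 (Tpsb2), and Kit at 11668. Kit had lower values, with Rabep1 first at 0.636, then Nck1, Atxn7l3, Tnks1bp1 and ENSMUSG00000097773. Hdc had ENSMUSG00000063875 and Eef1d, both at 0.733, then Mtmr14, Dync1h1 and Tmem191c. Prtn3 had Ro60 at 0.782, Lin7a at 0.779, Podn, ENSMUSG00000103432 and Pard3b.

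Other mast cell genes were lowly read or shared with other cells. Of 32 listed, 24 had counts, 18 were tested and 0 passed in either MR comparison. In elemental MR 13 of the 18 were below 0 and on casein 11 (medians -0.35 and -0.18). Over all tested genes, 53.9% and 58.1% were below 0. The most abundant were Cd63, a tetraspanin of granule membranes, at 311 CPM, Srgn, the serglycin core protein that holds granule proteases, at 117, and Ltc4s, which makes leukotriene C4, at 104. Many cell types express these 3. Ltc4s was 79.4 ± 37.5 CPM in casein control and 133 ± 27.6 in oxidized casein MR, a log2 fold change of 0.73 (edgeR adjusted p = 0.104). Genes more restricted to mast cells were near the limit of detection. Tpsab1 had 0 to 15 reads per library, Mrgprb2, the receptor for basic secretagogues, 0 to 15, Mrgprb1 0 to 28, and Slc18a2, which loads histamine into granules, 0 to 14. Ms4a2 and Fcer1a, the other chains of the IgE receptor, were not analysed here.

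Partners of the 7 genes gave no call. Of 9 histamine genes, 5 were tested and 0 passed, with medians of -0.05 and -0.02. Hnmt, which methylates histamine, was 30.7 ± 11.4 CPM in casein control and 45.8 ± 13.9 in oxidized casein MR, and Slc22a3, a transporter that takes up histamine, 76.6 ± 26.9 and 76.0 ± 19.3. Of 11 growth and attraction signals, 8 were tested and 0 passed, and 8 and 7 of them were below 0 in elemental MR and on casein (medians -0.37 and -0.36). Kitl, the ligand of Kit, was 25.5 ± 4.92 CPM in elemental control and 20.8 ± 5.57 in elemental MR. Cxcl12 was 125 ± 18.8 and 121 ± 13.3, and Ccl11, eotaxin, 22.6 ± 12.9 and 13.1 ± 4.22. Of 13 protease inhibitors, 12 were tested and 0 passed, with medians of -0.56 and -0.23. Serpina3n, a serpin of the antichymotrypsin family, had the highest level among them in the mean over 24 libraries, 165 CPM, with 180 ± 62.4 CPM in elemental control, 83.3 ± 47.1 in elemental MR, 273 ± 233 in casein control and 122 ± 32.2 in oxidized casein MR, where Serpina3c stood above it at 154 ± 51.6. The Serpina3n log2 fold changes were -1.11 and -1.19 (edgeR adjusted p = 0.297 and 0.113). In elemental MR the related genes Serpina1a, Serpina1b, Serpina1c and Serpina1d gave -1.3, -1.5, -1.8 and -1.5. For each of them the SD in elemental control exceeded the mean, as for Serpina1c at 98.3 ± 163.6 CPM. Over all tested genes the medians were -0.02 in elemental MR and -0.06 on casein.

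Markers of other cells were read beside the proteases. All 11 macrophage genes were below 0 in both MR comparisons, with medians of -0.59 and -0.44. Over all tested genes, 53.9% and 58.1% were below 0. Of the macrophage genes only Cd68, a lysosomal protein of macrophages, passed, lower in oxidized casein MR at -0.96 (edgeR adjusted p = 0.0367). In that comparison 0.461% of all genes were called lower. Of 8 adipose progenitor genes, 8 and 7 were below 0, with medians of -0.65 and -0.23. Of 3 tested keratinocyte genes, 3 and 1 were (medians -1.56 and 0.35). The summed macrophage level ran from 624.6 to 1080 CPM in elemental control, 295 to 911 in elemental MR, 654 to 1065 in casein control and 416 to 866 in oxidized casein MR. Its part in the protease values was not tested. All 9 muscle genes were below 0 in elemental MR (median -1.04) and 0 were below 0 on casein (median 0.98), with none past the threshold. All 12 B cell genes were below 0 on casein, with a median of -1.11, against 0.18 in elemental MR, and none passed. On casein, 3 of 10 white adipocyte genes were higher, where 3.35% of all genes were. They were Cfd, Slc2a4, the insulin-responsive glucose transporter, at 0.63 and Pnpla2, the main triglyceride lipase, at 0.52 (edgeR adjusted p = 0.0457 and 0.0467). The 3 tested eosinophil genes had a casein median of -1.09 with none past the threshold, and Cd200r3 was the single basophil gene tested.

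Other neutrophil granule genes were read beside Prtn3. Elane, neutrophil elastase, starts 3072 bp downstream of Prtn3, and its level of 0.876 ± 0.537 CPM over the 24 libraries lay below that of Prtn3 in 24 of 24. It had 0 to 19 reads, and its diet means were 0.538, 0.819, 0.837 and 1.31 CPM in elemental control, elemental MR, casein control and oxidized casein MR. Its rho with Prtn3 was -0.14 in the 15 libraries and 0.00 in the 9. Of 18 neutrophil genes, 12 had counts, 10 were tested and 0 passed in either MR comparison, with medians of 0.07 and -0.23. The summed neutrophil level ran from 22.7 to 45.6 CPM in elemental control, 17.3 to 52.6 in elemental MR, 22.1 to 53.0 in casein control and 18.8 to 42.6 in oxidized casein MR. The most abundant were Mmp9 at 13.3 CPM, S100a8 at 6.71 and S100a9 at 4.69. S100a8, a calcium-binding protein of neutrophils, was 11.0 ± 12.0 CPM in casein control and 3.58 ± 2.10 in oxidized casein MR (log2 fold change -1.62, edgeR adjusted p = 0.116). Mpo and Ctsg, the genes of myeloperoxidase and cathepsin G, were not analysed here.

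On the other side of Prtn3 lies a gene with a higher rho. Plppr3, a phospholipid phosphatase-related membrane protein, is read from the opposite strand, and its start overlaps the first 159 bases of the Prtn3 gene. It was picked out after its values were seen. Of 6 annotated Prtn3 transcripts, 1 starts within Plppr3, and no annotated gene overlaps the 3′ end of Prtn3, where reads of this kit fall. Plppr3 was 7.21 ± 1.91 CPM in elemental control, 3.26 ± 1.44 in elemental MR, 9.93 ± 4.95 in casein control and 6.01 ± 1.96 in oxidized casein MR. Its highest library was casein control replicate 4 at 19.2 CPM, which was also the highest for Prtn3. Its rho with Prtn3 was 0.80 in the 15 libraries and 0.52 in the 9, rank 259 of 15175 genes. The Plppr3 log2 fold changes were -1.14 (edgeR adjusted p = 0.11) in elemental MR and -0.73 (edgeR adjusted p = 0.196) on casein. Beyond Elane lies Cfd, the gene of the adipocyte serine protease adipsin, 2637 bp further on. It went the other way from Prtn3 under MR, from 8563 ± 3381 to 16050 ± 5348 CPM on casein, a rise of 0.90 on the log2 scale (edgeR adjusted p = 0.0482). On elemental diets Cfd stood at 5417 ± 1225 and 8385 ± 2051 CPM (log2 fold change 0.65, edgeR adjusted p = 0.341). Of the 7 neighbours tested, Cfd alone passed, on casein only, where 3.35% of all genes were called higher. Cfd is also among the white adipocyte genes counted as higher on casein.

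**Figure D4:**
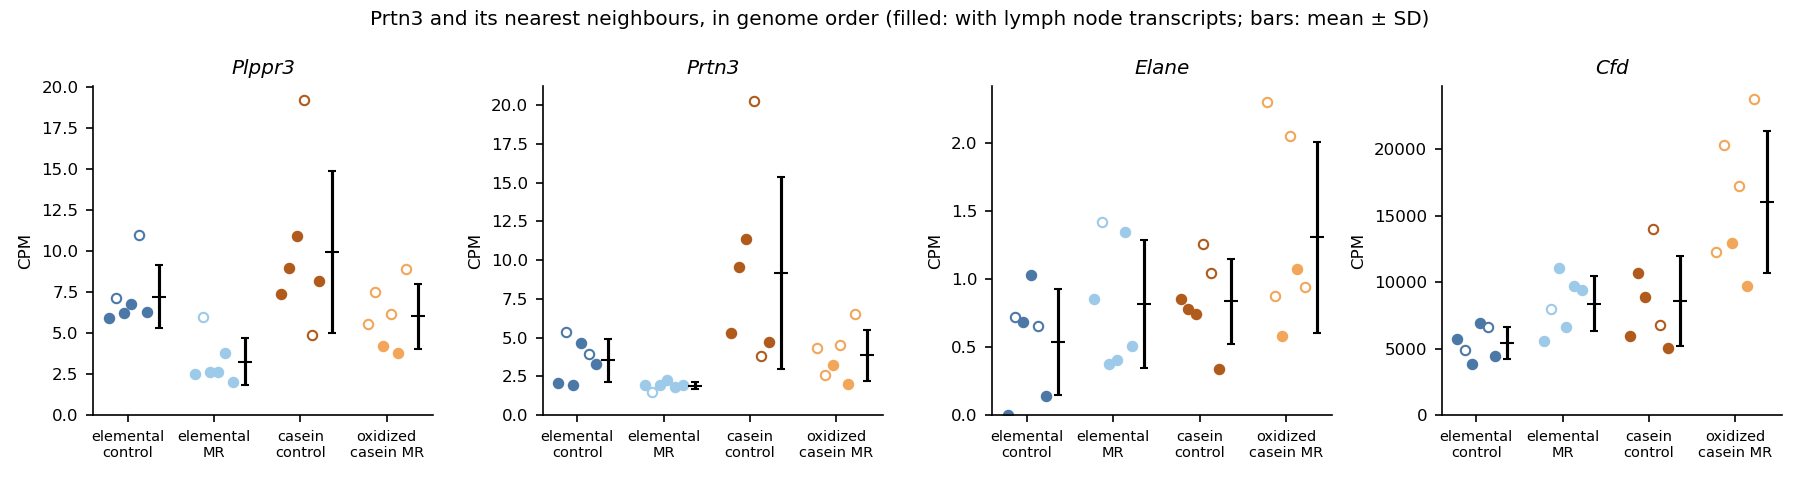
Level in CPM (y axes, linear from 0, each with its own scale) of Plppr3, Prtn3, Elane and Cfd, in their order along the chromosome, by diet (x axis). Each point is 1 mouse, filled for libraries with lymph node transcripts, and bars show mean ± SD of 6 mice. Prtn3 and Plppr3 share their highest library in casein control, Elane stays at or below 2.31 CPM, and Cfd is highest in oxidized casein MR.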

How the data were processed

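Raw gene counts and a normalized signal table were deposited by the authors for the 24 libraries, made with a QuantSeq 3′ kit and 50 bp reads per the labels' protocols. Named in the submitters' processing notes are DESeq2 1.18.1, R 3.4.3 and the build GRCm38/mm10. Aligner, counter and strand: not given in the sources used here. In value, the deposited normalized signal equals the counts divided by 1 size factor per library. The smallest gene total is 72 reads, so lower genes are not analysed here.

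The test was edgeR 4.0.16 in R 4.3.3 (filterByExpr by diet, TMM, robust quasi-likelihood fit on all 24 libraries, 1 mean per diet, 2-sided), with Benjamini-Hochberg adjustment over 15176 genes and a threshold of 0.05. Each SE is the fold change over the root of its F. DESeq2 1.42.0, limma 3.58.1 (voom), RLE scaling, no filter, a lymph node term, libraries with or without lymph node transcripts, and each library left out were tried as alternatives. Removing diet means from the correlations, and leaving the 2 most muscle-rich libraries out of sums and ratios, were added after the data were seen. The fit was also run on simulated counts, in which only genes with higher levels than Hdc and Prtn3 were changed. That run does not cover genes at the levels of Hdc and Prtn3. Correlations used log2 CPM with a prior count of 2, with 100000 permutations for 15 libraries and all 362880 orders for 9.

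Named genes were the 7, each list's genes past the threshold in an MR comparison or else its 3 most abundant, and the 5 genes most like each of the 7. Further genes were named after their values were seen. The 7 genes and the 17 lists were chosen with earlier results of these data known. Loci come from GENCODE M21 and promoters from RefSeq (GRCm38.p6). P-values measure the spread between these mice, 1 library each. Reads have no molecular identifiers.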

Additional observations from a re-analysis of the deposited data

Results flagged for a closer look

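Among the 28 groups of 6 libraries tested (7 genes in 4 diets), 2 held a library far from the others by Dixon's test, where chance flags about 1 in 20. Both were for Mcpt4, the chymase gene. Elemental MR replicate 2 stood at 2.4 CPM, below the other elemental MR libraries. Oxidized casein MR replicate 1 stood at 3.39 CPM, below the other oxidized casein MR libraries.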

How the results depend on the processing

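No paired analysis was possible because the labels give each mouse its own number and the groups share none. With elemental MR against elemental control, 37 genes passed with edgeR, 213 with DESeq2, 166 with a lymph node term, 5 among libraries with lymph node transcripts and 0 among those without. With oxidized casein MR against casein control these were 579, 915, 1120, 5 and 172, and in casein control against elemental control 100, 411, 313, 177 and 0. DESeq2 called 2 genes for the difference between the MR effects and 12 for oxidized casein MR against elemental MR, where edgeR called 0. Leaving out 1 library gave 7 to 252 genes in elemental MR (lowest without elemental control replicate 5, highest without elemental control replicate 1), 316 to 825 on casein (without casein control replicates 6 and 5), 24 to 202 between the controls (without elemental control replicates 3 and 2) and 0 to 1 between the MR diets (1 without oxidized casein MR replicate 3). The cause of these moves was not tested.

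Of 1085 refitted values of the 7 genes, 21 had the other sign, 2 of them in elemental MR, 7 on casein (6 for Tpsb2, 1 for Cma1), 9 for the difference between the MR effects and 3 between the controls. Those in elemental MR were both for Kit, at -0.21 among libraries without lymph node transcripts and -0.11 without elemental MR replicate 4, where the highest value with 1 library left out was 0.28. On casein, Prtn3 was past the threshold in 7 of 24 fits with 1 library left out and in 4 of 7 other alternatives. The log2 fold changes of the 24 fits ran from -1.49 to -0.86. Prtn3 had been named for this comparison, so these counts are descriptions and no test. The cause was not tested. None of the 7 genes passed in elemental MR under any of the 31 alternatives. The 21 diet ratios moved by less than the spread between mice and the 12 protease relations by less than 0.1 with the deposited normalized signal. With diet means removed, an alternative added after the data were seen, no relation passed. Then r with lymph node transcripts was 0.656 for Cpa3 and Cma1, 0.565 for Cpa3 and Mcpt4, 0.497 for Cpa3 and Tpsb2, 0.283 for Cma1 and Mcpt4 and 0.669 for Cma1 and Tpsb2. Without them it was 0.897, 0.586, 0.774, 0.792 and 0.912 in that order. For Mcpt4 and Tpsb2, r was 0.156 with lymph node transcripts and 0.924 without. The cause was not tested. Reads were few for Hdc (10 to 58 per library) and for Prtn3 in elemental MR (15 to 33), and the part of depth in their values was not tested.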
